A study of Mus musculus with 4 samples.

Results

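The genes described here move protons, bicarbonate and other anions across kidney tubule membranes. They comprise the vacuolar proton pump (V-ATPase, gene symbols starting with Atp6v or Atp6ap), the Slc4 bicarbonate transporters, the Slc26 anion transporters and the carbonic anhydrases (Car followed by a number). Members were taken by these symbols from the platform annotation, and each gene was read from its brightest probe. This gave 60 genes among the 21713 named genes of the array, namely 24 of the V-ATPase, 10 Slc4 genes, 11 Slc26 genes and 15 carbonic anhydrases.

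The V-ATPase has a cytosolic V1 part that splits ATP and a membrane V0 part through which protons pass. In most cells it acidifies lysosomes and other organelles with housekeeping isoforms of its subunits. Intercalated cells, the acid-base cells of the connecting tubule and collecting duct, place it in the plasma membrane with other isoforms of some subunits. Of these isoforms, B1 and a4 are mutated in human distal renal tubular acidosis. These cells pair the pump with chloride-bicarbonate exchangers, AE1 (Slc4a1) in type A and pendrin (Slc26a4) in type B cells, and carbonic anhydrases supply both with protons and bicarbonate.

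RNA came from kidney tubules of PV-eGFP transgenic mice (strain background B6D2F2), in which the parvalbumin promoter drives the fluorescent protein that was used to sort distal convoluted tubule (DCT) fragments. Mice on the low-magnesium diet received 0.02% magnesium by weight and mice on the high-magnesium diet 0.48%, each for 15 days, at an age of 6 to 8 weeks at tubule isolation, and both groups carried the transgene. On each of 4 two-colour arrays a low-diet sample was hybridised together with that of a littermate on the high diet, and these pairs are called L1/H1, L2/H3, L7/H7 and L8/H8 after the sample numbers. The low-diet sample was in Cy5 in L1/H1 and L7/H7 and in Cy3 in L2/H3 and L8/H8. RNA of 4000 sorted fragments was pooled per sample, and the labels do not say whether these came from 1 mouse or several, so the p-values measure the spread between these 4 pairs only.

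Log2 ratios are given as low over high diet throughout. DCT markers were bright, with Slc12a3, the DCT's sodium chloride cotransporter, above background in all 8 samples. Mean log2 intensities over 8 DCT markers lay between 11.48 and 11.59 in low-diet samples and between 10.61 and 11.08 in high-diet samples. Pvalb, whose promoter drove the reporter, itself rose on the low diet, with a log2 ratio of 2.27 ± 0.40 (SD, n = 4; limma adjusted p = 0.0121). The list was split, since Calb1 (1.54), Trpm6 (1.01) and Egf (0.71) also rose in limma. Its other genes did not pass, with 0.13 for Slc12a3, 0.22 for Wnk4, -0.02 for Slc8a1 and -0.18 for Klhl3. Proximal tubule markers differed by pair, with median ratios over 18 genes of -1.05 in L1/H1, -0.73 in L2/H3, -0.09 in L7/H7 and -0.22 in L8/H8. Of the 60 members, 53 were above background on all arrays in both diets and 7 dim ones on some arrays only (Atp6ap1l, Car5a, Car5b, Car6, Slc26a5, Slc26a6 and Slc4a10). No member had a saturated spot. In sorted tubule fragments, fewer cells of a type and less RNA per cell cannot be told apart.

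Few members changed between the diets. In limma with Benjamini-Hochberg adjustment over 39429 probes, 5 of the 60 members passed at 0.05 (8.33%), against 7.82% of all named genes, so the share was near that of the whole array. Of these, 2 were higher on the low diet, Atp6v0e and Atp6ap2 (3.33% of members, against 4.88% of all named genes). The other 3 were lower, Car4, Atp6v1g2 and Slc26a10 (5% of members, against 2.95%). The median log2 ratio over all members was 0.02, and over all named genes 0.00. At an unadjusted p under 0.05 there were 16 of 60 members, against 5804 of 21713 named genes.

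**Figure D1:**
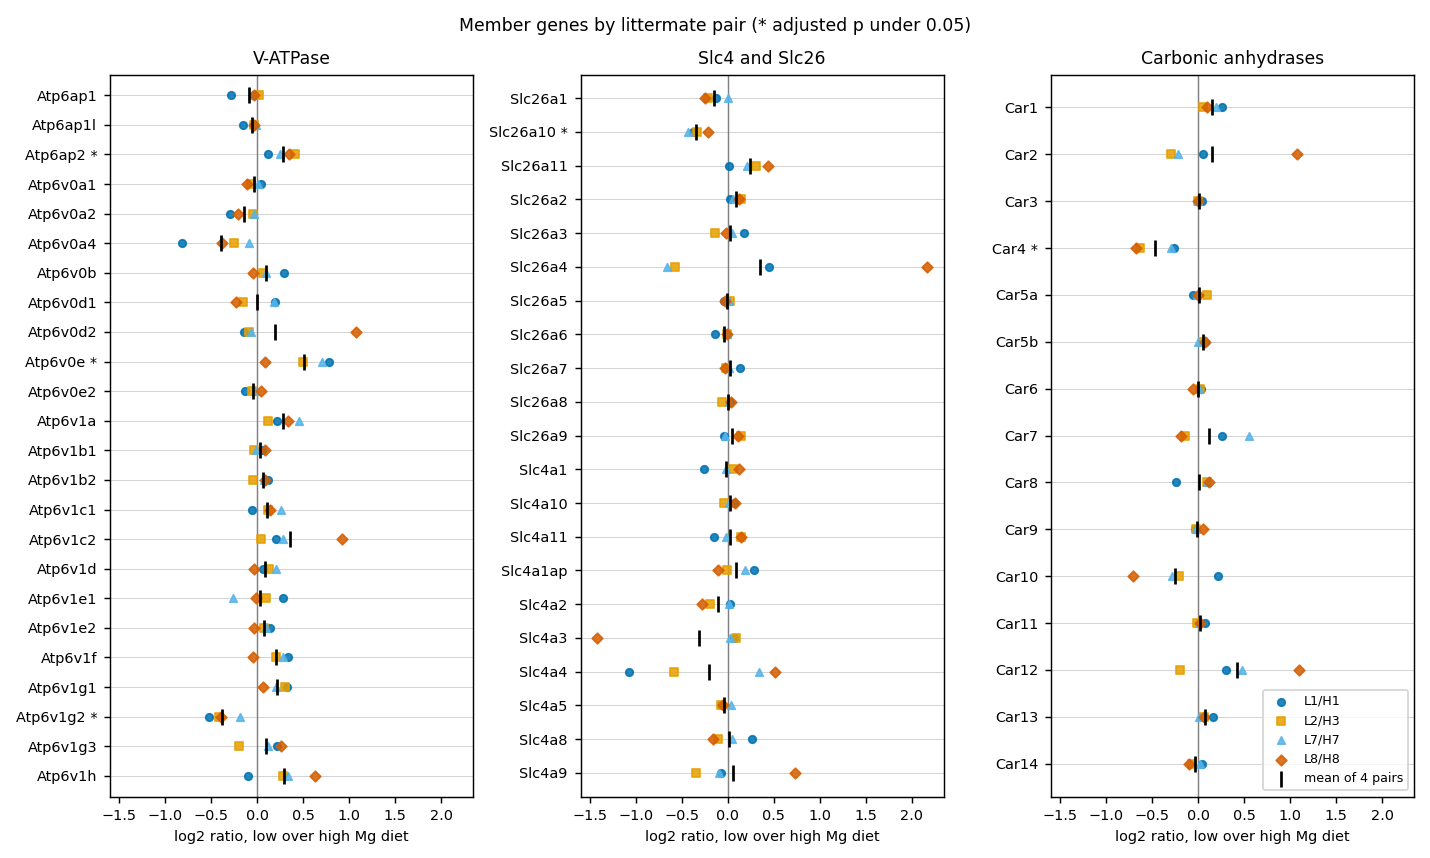
Log2 ratio of low over high magnesium diet (x axis) for each of the 60 genes (y axis) in the 4 littermate pairs (coloured symbols) with their mean (black bar). Most genes cluster around 0, while Slc26a4 reaches 2.17 in L8/H8 and Slc4a3 lies at -1.42 there.

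Among genes listed as shared pump subunits, ratios were mostly above 0. Of the 8 measured genes 1 passed as higher, where 4.88% of all named genes rose. The list includes Atp6v0e and Atp6v0e2, which are alternative forms of subunit e. It also includes Atp6v1e1, which has a testis form, so these genes need not be in every pump. Atp6v0e encodes the small V0 subunit e. Its normalised log2 intensity was 12.85 in L1, 12.75 in L2, 12.93 in L7 and 12.70 in L8, against 12.07 in H1, 12.24 in H3, 12.24 in H7 and 12.62 in H8. Every low-diet sample lay above every high-diet sample, but L8 and H8 were close. The rise of Atp6v0e was 0.51 ± 0.31 on the log2 scale, or 1.43-fold (SD, n = 4; limma adjusted p = 0.0349), with pair ratios of 0.78, 0.50, 0.70 and 0.08 in the order L1/H1, L2/H3, L7/H7 and L8/H8. It did not pass without L1/H1 (0.49, adjusted p = 0.125) or without L7/H7 (0.53, adjusted p = 0.0872).

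The other genes of the shared-subunit list did not pass. The catalytic subunit A gene Atp6v1a had log2 ratios of 0.22 in L1/H1, 0.12 in L2/H3, 0.46 in L7/H7 and 0.33 in L8/H8, with a mean of 0.28 ± 0.15 (adjusted p = 0.0688). It was above 0 in 4 of 4 pairs, and a second Atp6v1a probe had a mean of 0.25 ± 0.32, with 1 pair below 0. Atp6v1f, a subunit of the central stalk, averaged 0.20 ± 0.17 (adjusted p = 0.104), and Atp6v1h, the subunit that regulates coupling of both parts, 0.29 ± 0.30 (adjusted p = 0.179). Atp6v1d and Atp6v1e1 of the stalks averaged 0.09 and 0.03, and Atp6v0b of the proton-carrying ring 0.10. Atp6v0e2, a second form of subunit e, was dim and averaged -0.04. The median over the 8 genes was 0.25 in L1/H1, 0.13 in L2/H3, 0.25 in L7/H7 and 0.02 in L8/H8, against medians of all named genes between 0.00 and 0.01.

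Accessory proteins of the pump gave the other rise. Atp6ap2 encodes the (pro)renin receptor, which also takes part in pump assembly. Its log2 intensity was 12.47 in L1, 12.44 in L2, 12.51 in L7 and 12.78 in L8, against 12.36 in H1, 12.02 in H3, 12.26 in H7 and 12.43 in H8, so the groups met without overlapping. The log2 ratio of Atp6ap2 was 0.28 ± 0.13, a 1.22-fold rise seen in 4 of 4 pairs (SD, n = 4; limma adjusted p = 0.0277). The call was lost when any single pair was left out, with log2 ratios between 0.25 and 0.32 and adjusted p of 0.0658 without L1/H1, 0.0922 without L2/H3, 0.0720 without L7/H7 and 0.0893 without L8/H8. Atp6ap1, another accessory subunit, averaged -0.09 by its brightest probe, and 0.22 and 0.13 by 2 dimmer probes, so its direction was not settled. Atp6ap1l averaged -0.06.

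Promoter windows are shown for the pump genes that hold a motif tied to lysosomal or intercalated-cell expression. CACGTG is the core of the CLEAR element bound by TFEB, a regulator of lysosomal genes, and TGTTTAC is a core motif of forkhead factors, the family of Foxi1 of intercalated cells. The windows run from 250 bases before to 50 after the start site, from RefSeq on GRCm38.p6, and 42 of 60 members had one. Both strands were searched, and capitals mark the motif, or TCACGTGA where the core lies within that longer form.
Atp6v0e, chr17:26676146-26676445, plus strand: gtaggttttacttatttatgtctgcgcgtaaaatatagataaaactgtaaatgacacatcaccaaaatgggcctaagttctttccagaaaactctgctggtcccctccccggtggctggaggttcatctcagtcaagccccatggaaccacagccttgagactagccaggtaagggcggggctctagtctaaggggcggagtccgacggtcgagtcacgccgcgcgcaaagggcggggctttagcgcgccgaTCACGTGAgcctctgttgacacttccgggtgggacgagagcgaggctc
Atp6v1a, chr16:44139210-44139509, minus strand: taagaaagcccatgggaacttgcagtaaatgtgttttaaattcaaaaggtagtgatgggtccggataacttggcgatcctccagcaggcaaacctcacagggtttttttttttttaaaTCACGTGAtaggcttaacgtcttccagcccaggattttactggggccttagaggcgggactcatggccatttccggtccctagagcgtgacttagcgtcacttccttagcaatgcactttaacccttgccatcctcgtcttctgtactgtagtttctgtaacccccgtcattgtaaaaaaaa
Atp6v0b, chr4:117887280-117887579, minus strand: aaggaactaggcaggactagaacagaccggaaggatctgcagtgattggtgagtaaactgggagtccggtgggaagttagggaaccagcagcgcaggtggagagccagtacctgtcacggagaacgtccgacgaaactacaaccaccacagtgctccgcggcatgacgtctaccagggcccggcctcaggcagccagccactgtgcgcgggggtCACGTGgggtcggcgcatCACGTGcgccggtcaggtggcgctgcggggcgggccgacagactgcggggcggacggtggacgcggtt
Atp6v0d1, chr8:105566015-105566314, minus strand: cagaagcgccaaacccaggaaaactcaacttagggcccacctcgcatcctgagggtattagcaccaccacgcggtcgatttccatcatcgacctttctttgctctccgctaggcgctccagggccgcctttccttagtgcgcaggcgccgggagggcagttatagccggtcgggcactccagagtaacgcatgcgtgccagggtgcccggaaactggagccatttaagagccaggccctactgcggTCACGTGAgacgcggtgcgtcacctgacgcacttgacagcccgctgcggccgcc
Atp6v1b1, chr6:83742767-83743066, plus strand: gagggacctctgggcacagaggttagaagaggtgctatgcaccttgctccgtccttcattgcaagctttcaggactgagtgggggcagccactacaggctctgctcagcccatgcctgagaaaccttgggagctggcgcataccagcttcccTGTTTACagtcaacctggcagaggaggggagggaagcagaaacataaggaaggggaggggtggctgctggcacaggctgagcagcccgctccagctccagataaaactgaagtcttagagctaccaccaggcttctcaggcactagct

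CACGTG was in the window of 4 of 17 V-ATPase members (23.5%), against 2187 of 27025 genes (8.09%). TCACGTGA, which contains it, was in 3 of the 17 (17.6%), against 1.12% of genes. Its carriers were Atp6v0e, Atp6v1a and Atp6v0d1, while Atp6v0b held CACGTG at 2 places. Their mean log2 ratios were 0.51, 0.28, 0.00 and 0.10, of which Atp6v0e alone passed. TGTTTAC was in 1 of 17 windows, that of Atp6v1b1, against 4.05% of genes. These matches describe letters in the window and not binding.

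Isoforms of intercalated cells were set against the housekeeping isoform of the same subunit. These names do not tell which cells of the fragments made the RNA, which was not tested. The mean log2 brightness was 11.03 for Atp6v0a4 and 6.79 for Atp6v1b1. None of the 5 intercalated-cell isoforms passed in limma, and 1 of them, Atp6v0a4, had an unadjusted p under 0.05. None of 6 housekeeping isoforms passed either, and 1, Atp6v1g1, had an unadjusted p under 0.05. The median of the 5 intercalated-cell isoforms minus that of their 5 counterparts was -0.07 in L1/H1, -0.06 in L2/H3, -0.19 in L7/H7 and 0.20 in L8/H8, with a mean of -0.03 ± 0.16 (SD, n = 4). The difference thus changed sign between pairs and was smaller than their spread. In L1/H1 and L7/H7 the intercalated-cell median, 0.05 and -0.01, was the value of the dim Atp6v1b1 probe. With the dimmest 50% of probes left out, Atp6v1b1 among them, the mean difference was 0.05.

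Each isoform had a course of its own. Atp6v0a4, the proton channel subunit a4, had a log2 intensity of 10.59 in L1, 10.99 in L2, 10.83 in L7 and 10.92 in L8, against 11.41 in H1, 11.24 in H3, 10.92 in H7 and 11.31 in H8. It was lower on the low diet in 4 of 4 pairs, with a mean log2 ratio of -0.39 ± 0.31 (adjusted p = 0.168), and the groups overlapped by H7. It passed only without L7/H7, at -0.57. In that fit L1/H1 is the lone array of its dye orientation and its own spread is not measured. The housekeeping counterpart Atp6v0a1 averaged -0.03 ± 0.07 by its brightest probe, and Atp6v0a2, another a isoform, -0.14 ± 0.13. A second Atp6v0a1 probe of like brightness averaged -0.14 ± 0.28, with 0.00 in L1/H1, -0.37 in L2/H3, 0.19 in L7/H7 and -0.37 in L8/H8. Atp6v0a4 was at -0.25 in L2/H3, above this second probe, and at -0.38 in L8/H8, level with it. By the brightest Atp6v0a1 probe, the ratio of Atp6v0a4 minus that of Atp6v0a1 was -0.86, -0.18, -0.10 and -0.27 in the order of pairs above. The exact sign-flip test gave p = 0.125, the smallest value that 4 pairs allow, and 0.625 after adjustment over 5 isoform contrasts.

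Atp6v0d2, the renal form of subunit d, split the pairs. Its log2 intensity was 8.38 in L1, 8.38 in L2, 7.79 in L7 and 9.05 in L8, against 8.52 in H1, 8.47 in H3, 7.86 in H7 and 7.98 in H8. The ratio was 1.07 in L8/H8 and between -0.14 and -0.07 in the other pairs (mean 0.19 ± 0.59, 95% interval -0.31 to 0.69, adjusted p = 0.666). A second Atp6v0d2 probe of like brightness had 0.82 in L8/H8 and between -0.48 and -0.14 elsewhere. Atp6v1c2, a kidney and lung form of subunit C, had 0.92 in L8/H8 and 0.21, 0.04 and 0.28 in the other pairs, with a mean of 0.36 ± 0.39 (adjusted p = 0.260). Without L8/H8 the fit with the dye term gave -0.10 for Atp6v0d2 and 0.14 for Atp6v1c2. Both passed when L2/H3 was left out, at 0.48 (adjusted p = 0.0387) and 0.59 (adjusted p = 0.0308), a fit in which L8/H8 is the lone array of its dye orientation and its own spread is not measured.

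The B and G isoforms moved little. Atp6v1b1, the B1 subunit, had ratios between -0.03 and 0.09 from a dim probe, with a mean of 0.03 ± 0.05, and its counterpart Atp6v1b2 averaged 0.06 ± 0.07. Atp6v1g3 averaged 0.10 ± 0.21, and its counterpart Atp6v1g1 0.22 ± 0.12 (adjusted p = 0.0865). Atp6v1g1 had 2 further probes, at 0.20 each. The housekeeping Atp6v1c1 averaged 0.11 ± 0.13 and Atp6v0d1 0.00 ± 0.22. Exact sign-flip p-values of the B, C, G and d contrasts lay between 0.375 and 0.875. Among isoforms of other tissues, Atp6v1g2, the G2 form of brain, fell, and the testis form Atp6v1e2 averaged 0.07 ± 0.07.

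**Figure D2:**
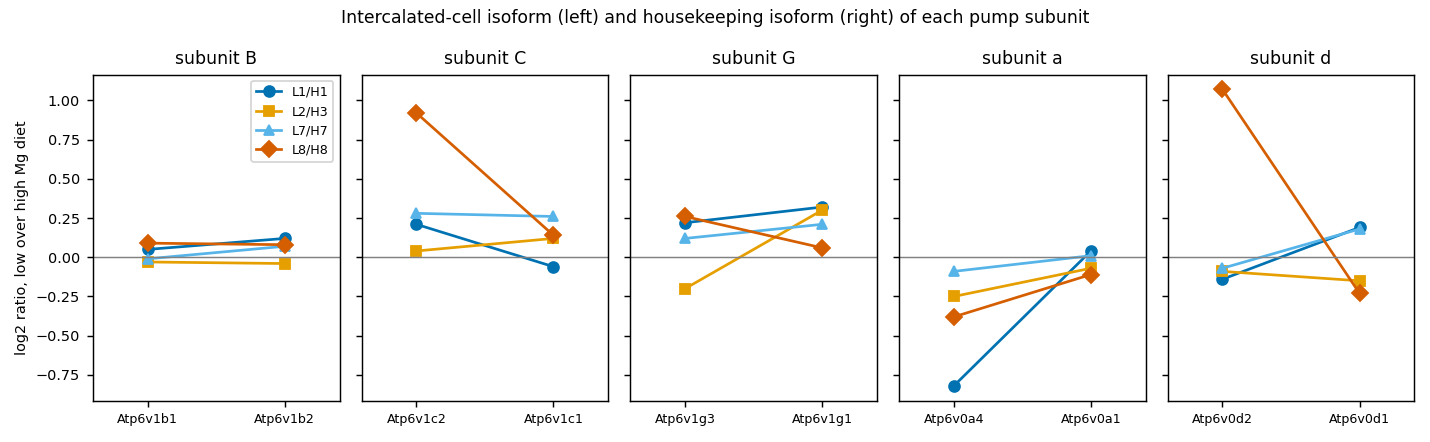
Log2 ratio of low over high magnesium diet (y axis) of the intercalated-cell isoform (left) and the housekeeping isoform (right) of 5 pump subunits, with a line for each littermate pair. Atp6v0d2 and Atp6v1c2 stand at 1.07 and 0.92 in L8/H8, and Atp6v0a4 lies below the brightest Atp6v0a1 probe in every pair.

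Atp6v1g2 had a log2 intensity of 7.88 in L1, 7.87 in L2, 7.92 in L7 and 7.71 in L8, against 8.40 in H1, 8.27 in H3, 8.12 in H7 and 8.10 in H8. No low-diet sample reached a high-diet one. It fell by 0.38 on the log2 scale (SD 0.13, n = 4; adjusted p = 0.0397), in 4 of 4 pairs, while a dimmer Atp6v1g2 probe averaged 0.02. The call was lost without L1/H1 (-0.30, adjusted p = 0.0663), without L2/H3 (-0.37, adjusted p = 0.126) and without L8/H8 (-0.38, adjusted p = 0.135).

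Among anion exchangers of intercalated cells, Slc26a4 had the widest spread of ratios of all 60 members (SD 1.31), while the SD of the other 4 lay between 0.07 and 0.46. Slc26a4 encodes pendrin and had a log2 intensity of 10.21 in L1, 9.44 in L2, 9.28 in L7 and 10.94 in L8, against 9.76 in H1, 10.01 in H3, 9.94 in H7 and 8.77 in H8. L8 was thus the highest and H8 the lowest of all 8 samples, and they were littermates on 1 array. The Slc26a4 ratio was 2.17 in L8/H8, 0.45 in L1/H1, -0.57 in L2/H3 and -0.66 in L7/H7. Its mean of 0.35 ± 1.31 (SD, n = 4) had a 95% interval of -0.92 to 1.62 (adjusted p = 0.766). Without L8/H8 the fit with the dye term gave -0.34 for Slc26a4.

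Slc4a9, the AE4 exchanger of type B cells, was above 0 in L8/H8 alone, at 0.73, with -0.07 in L1/H1, -0.34 in L2/H3 and -0.09 in L7/H7 (mean 0.06 ± 0.46, adjusted p = 0.902). A second Slc4a9 probe lay between -0.10 and 0.03 in all pairs. Slc4a9 passed without L2/H3 (0.32, adjusted p = 0.0489), again with L8/H8 as the lone array of its orientation. Slc4a1, the AE1 exchanger of type A cells, averaged -0.02 ± 0.17, Slc4a8, the sodium-driven exchanger that works with pendrin, 0.01 ± 0.19, and Slc26a7, a basolateral exchanger of type A cells, 0.02 ± 0.07. The Slc26a7 probe was dim. None of the 5 exchangers passed, and their median of 0.02 was the value of Slc26a7.

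Of the 15 carbonic anhydrases, 2 had a ratio above 1 in L8/H8. Car2, the main cytosolic enzyme, and Car12, a transmembrane enzyme, are described here because of values already seen. Car2 had a log2 intensity of 9.07 in L1, 8.74 in L2, 8.30 in L7 and 9.56 in L8, against 9.02 in H1, 9.05 in H3, 8.52 in H7 and 8.49 in H8. Its ratio was 1.07 in L8/H8 and between -0.30 and 0.05 elsewhere (mean 0.15 ± 0.63, adjusted p = 0.794). Car12 had 1.09 in L8/H8, 0.30 in L1/H1, -0.20 in L2/H3 and 0.48 in L7/H7 (mean 0.42 ± 0.53, adjusted p = 0.371). Car12 passed only without L2/H3, where L8/H8 is the lone array of its dye orientation and its own spread is not measured. The other cytosolic enzymes Car1, Car3, Car7 and Car13 lay between -0.19 and 0.10 in L8/H8. Counted over all members, 8 had a ratio of 0.5 or more in L8/H8 (Slc26a4, Car12, Atp6v0d2, Car2, Atp6v1c2, Slc4a9, Atp6v1h and Slc4a4), against 1 in L1/H1, 1 in L2/H3 and 2 in L7/H7. Among all named genes the share at 0.5 or more was 2.27% in L8/H8, 2.22% in L1/H1, 2.03% in L2/H3 and 1.77% in L7/H7. At -0.5 or less there were 3 members in L8/H8 (Car10, Car4 and Slc4a3), 3 in L1/H1, 3 in L2/H3 and 1 in L7/H7. The share of all named genes there was 1.83% in L8/H8, 2.12% in L1/H1, 1.52% in L2/H3 and 1.34% in L7/H7. These counts are by the brightest probe of each gene, and 2 dimmer Slc4a4 probes had -0.26 and -0.20 in L8/H8.

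**Figure D3:**
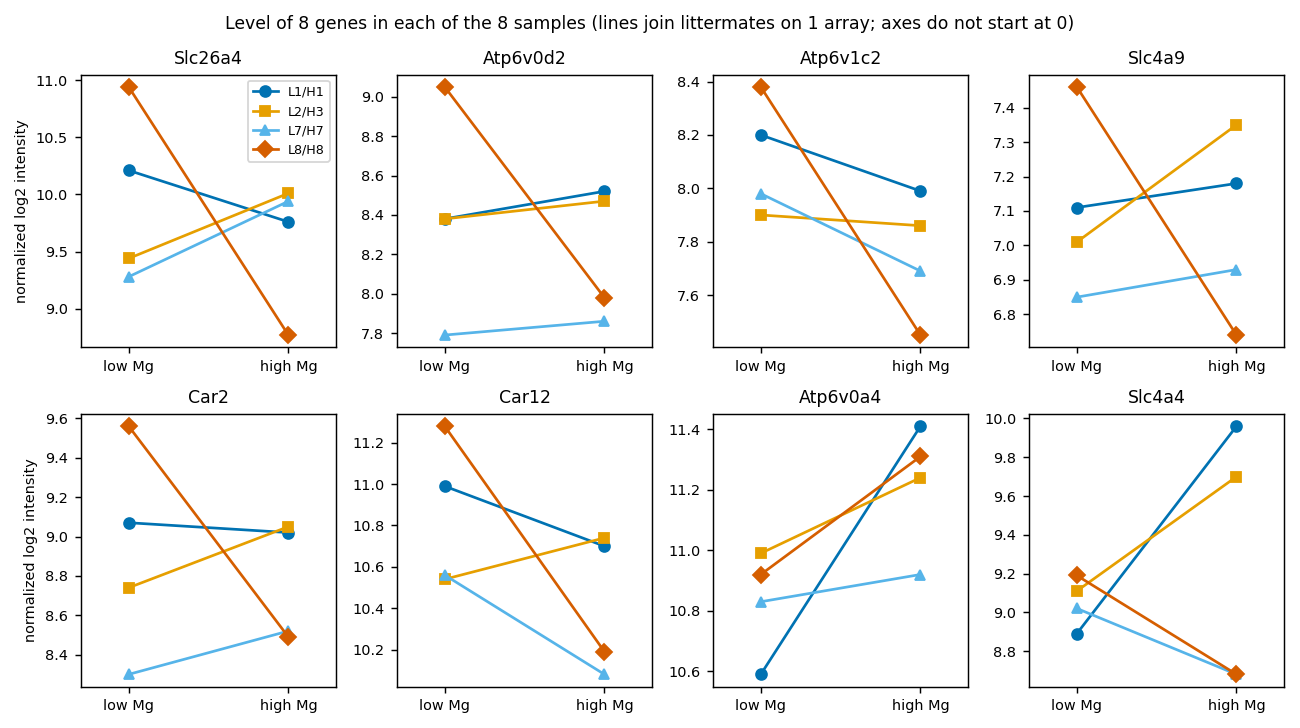
Normalised log2 intensity (y axis) of 8 genes in low-diet (left) and high-diet (right) samples, with lines joining the littermates of an array. Slc26a4 stands at 10.94 in L8 and 8.77 in H8, and Slc4a4 is highest in H1 and H3 at 9.96 and 9.70.

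Intercalated-cell markers that are not members were read beside these values. None of 12 passed in limma, 3 had an unadjusted p under 0.05, and their median ratio was -0.05 in L1/H1, -0.06 in L2/H3, -0.05 in L7/H7 and 0.06 in L8/H8. The mean log2 intensity over the list ranged from 7.89 to 8.23 in low-diet samples, with L8 highest, and from 7.98 to 8.31 in high-diet samples, with H1 highest, and all 12 were above background throughout. In L8/H8, Rhbg, an ammonia transporter, had 0.78, Hmx2, a transcription factor, 0.68, Hepacam2 0.59 and Insrr, a receptor, 0.54. Other members of the list did not share this, since Foxi1, the intercalated-cell transcription factor, had 0.19 there, Kit -0.19, Rhcg -0.27 and Aqp6 -0.19. The rest of the list had -0.03 for Oxgr1, 0.00 for Clnk, 0.13 for Dmrt2 and -0.16 for Adgrf5. Scnn1g, the gamma subunit of the sodium channel of connecting tubule and collecting duct, had 1.04 in L8/H8 and between -0.45 and -0.30 in the other pairs. The list of 9 principal cell markers that holds Scnn1g did not share this. In L8/H8 its median was 0.05, with 5 genes above 0 and Avpr2 lowest at -1.38. L8 also had the fewest probes above background of all 8 samples, at 65.5%, against 96.2% in H8, while the other low-diet samples had between 81.1% and 97.4%. The part of cell makeup and of this difference in the L8/H8 values was not tested.

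In L1/H1 the same 12 markers ranged from -1.24 for Aqp6 to 0.29 for Rhbg, with 5 above 0. Adgrf5 was at -0.69, Dmrt2 at -0.58 and Kit at -0.37, while Rhcg and Foxi1 were at 0.04 and Insrr at 0.26. Atp6v0a4 had its lowest ratio in this pair, at -0.82. Slc4a1 was at -0.26 there and Slc26a4 at 0.45. None of these differences has a replicate within the pair, and the part of cell makeup in them was not tested.

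Among the remaining carbonic anhydrases, Car4 was the clearest fall of all members. This lipid-anchored enzyme faces the lumen of the proximal tubule and thick ascending limb. Its log2 intensity was 11.63 in L1, 11.29 in L2, 11.57 in L7 and 11.15 in L8, against 11.89 in H1, 11.92 in H3, 11.88 in H7 and 11.82 in H8. High-diet samples lay in a narrow band above all low-diet samples. Car4 fell by 0.47 on the log2 scale (SD 0.22, n = 4; adjusted p = 0.0111), in 4 of 4 pairs, with -0.26 and -0.30 where the low-diet sample was in Cy5 and -0.63 and -0.68 where it was in Cy3. A dimmer Car4 probe averaged -0.05 ± 0.12. The call was lost without L1/H1 (-0.48, adjusted p = 0.0526) and without L8/H8 (-0.46, adjusted p = 0.0514), and also without the dye term (-0.47, adjusted p = 0.0676).

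Proximal tubule markers had their lowest median ratio in L1/H1, at -1.05, and Kap and Slc5a2 of that list fell while Ggt1 rose in limma. Slc4a4, the sodium bicarbonate cotransporter of the proximal tubule's basolateral membrane, was singled out after its values were seen because its ratios were low in L1/H1 and L2/H3, as theirs were. Its log2 intensity was 8.89 in L1, 9.11 in L2, 9.02 in L7 and 9.19 in L8, against 9.96 in H1, 9.70 in H3, 8.68 in H7 and 8.68 in H8. The ratios were -1.07, -0.58, 0.34 and 0.51 (mean -0.20 ± 0.75, adjusted p = 0.777). The mean log2 intensity over 18 proximal tubule markers was 9.29 in H1 and 8.96 in H3 and at most 8.35 in every other sample. The part of proximal tubule RNA in the Slc4a4 ratios and in the Car4 fall was not tested. Slc4a4 also has 2 dimmer probes, which averaged -0.12 and -0.09. They had -0.10 and -0.05 in L1/H1, -0.14 and -0.13 in L2/H3, and -0.26 and -0.20 in L8/H8. The large falls in L1/H1 and L2/H3 and the ratio above 0 in L8/H8 were thus seen by 1 probe of 3.

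**Figure D4:**
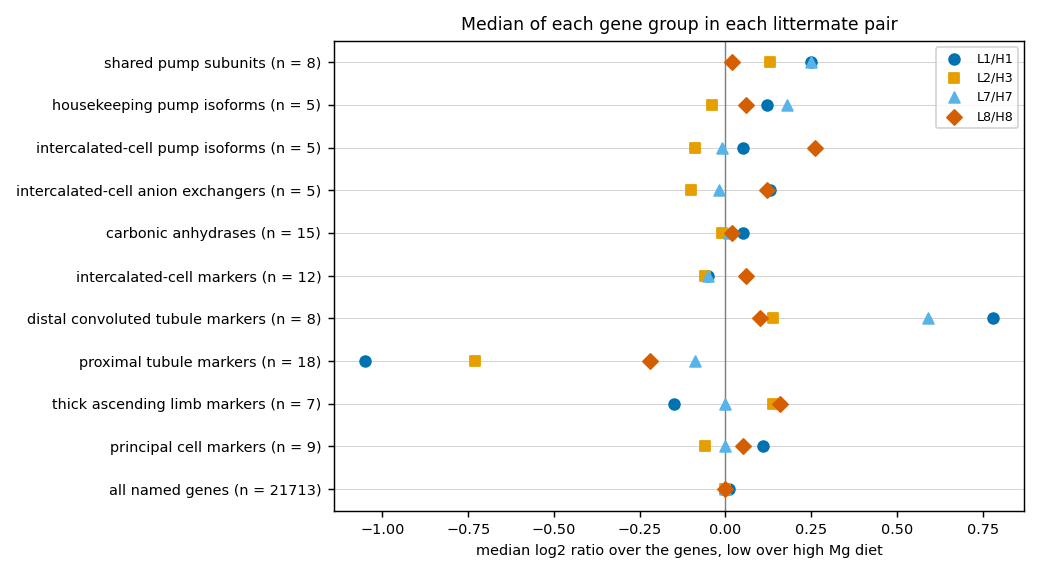
Median log2 ratio of low over high magnesium diet (x axis) for groups of member genes and of cell type markers (y axis) in each littermate pair. Proximal tubule markers lie at -1.05 and -0.73 in L1/H1 and L2/H3, while the 5 groups of member genes plotted stay between -0.10 and 0.26.

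Other members of the family changed little. Car1, the cytosolic enzyme abundant in red blood cells, averaged 0.15 ± 0.10 (adjusted p = 0.0638), above 0 in 4 of 4 pairs. None of 3 measured red blood cell markers of 5 listed passed in limma, and 0 had an unadjusted p under 0.05. Their mean log2 intensity lay between 6.94 and 7.06 in low-diet samples and between 6.99 and 7.07 in high-diet samples. Only 1 of the 3 was above background on all arrays in both diets, and ratios of dim probes are pulled towards 0. These markers therefore say little about red blood cell RNA. Car7, a cytosolic enzyme, split by dye, with 0.26 and 0.55 where the low-diet sample was in Cy5 and -0.14 and -0.19 where it was in Cy3. Car10, a protein without enzyme activity, had ratios between -0.71 and 0.21 from its bright probe, with 3 other probes averaging between -0.03 and 0.03. The 9 genes Car3, Car5a, Car5b, Car6, Car8, Car9, Car11, Car13 and Car14 had mean ratios between -0.03 and 0.07. Car10 and Car7 were singled out after their values were seen.

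Of the remaining Slc26 genes, Slc26a10, a family member of unsettled function, fell by 0.34 on the log2 scale (SD 0.10, n = 4; adjusted p = 0.0194), in 4 of 4 pairs. Its log2 intensity was 8.25 in L1, 8.51 in L2, 8.48 in L7 and 8.87 in L8, against 8.63 in H1, 8.83 in H3, 8.92 in H7 and 9.08 in H8, so levels overlapped between diets although each low-diet sample lay below its littermate. The call was lost without any one pair, with ratios between -0.36 and -0.31 and adjusted p of 0.0673 without L1/H1, 0.0566 without L2/H3, 0.0622 without L7/H7 and 0.0594 without L8/H8. A dimmer Slc26a10 probe averaged 0.01. Slc26a11, a chloride and sulfate transporter, averaged 0.24 ± 0.18 (adjusted p = 0.0625) and was above 0 in 4 of 4 pairs. The sulfate transporters Slc26a1 and Slc26a2 averaged -0.15 ± 0.11 (adjusted p = 0.0883) and 0.09 ± 0.05 (adjusted p = 0.148). The Slc26a2 probe was dim, and its ratio was 0.43 with plain background subtraction. Slc26a3, Slc26a5, Slc26a6, Slc26a8 and Slc26a9 had dim probes with means between -0.04 and 0.05.

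Of the remaining Slc4 genes, none of 7 measured passed in limma, and 2 had an unadjusted p under 0.05. Slc4a2, the housekeeping exchanger AE2, averaged -0.11 ± 0.15 (adjusted p = 0.132). Slc4a1ap, which encodes the adaptor kanadaptin and no transporter, averaged 0.09 ± 0.18 (adjusted p = 0.206). Slc4a5, Slc4a10 and Slc4a11 averaged between -0.04 and 0.03. Slc4a3, the exchanger AE3, was bright in both samples of 1 array, with a log2 intensity of 8.81 in L8, against 10.23 in H8, while all other samples lay between 7.12 and 7.23. Its ratio there was -1.42, and 2 other Slc4a3 probes had 0.18 and 0.01 on the same array, so this difference was seen by 1 probe of 3. Slc4a3 was singled out after its values were seen. It passed only without L2/H3, again with L8/H8 as the lone array of its dye orientation.

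Partners of the pump outside the member list, such as assembly factors, regulators and other acid-base transporters, gave 2 rises and 1 fall among 26 measured genes of 27 listed, where 4.88% of all named genes rose and 2.95% fell. Vma21, a chaperone of V0 assembly, had ratios of 0.22, 0.38, 0.53 and 0.41 and rose by 0.38 ± 0.13 (SD, n = 4; adjusted p = 0.0374). Mitf, a transcription factor of the TFEB family, rose by 0.27 ± 0.12 (adjusted p = 0.0447). Atp4a, the alpha subunit of the gastric type of proton-potassium pump, fell, with ratios of -0.76, -0.53, -0.43 and -0.65 and a mean of -0.59 ± 0.14 (adjusted p = 0.0207). Tfeb averaged 0.04 ± 0.05, and Tcirg1, which encodes the a3 isoform of the V-ATPase, -0.01 ± 0.03.

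The authors' deposited table, whose log2 ratio runs high over low diet, listed 1 of the 5 called members with a p under 0.05. In the authors' deposited table Car4 had 0.46 (p = 0.0342). The authors' deposited table gave Atp6v0e -0.55 (p = 0.227), Atp6ap2 -0.32 (p = 0.643), Atp6v1g2 0.44 (p = 0.138) and Slc26a10 0.39 (p = 0.497). The directions match those above once the sign is turned.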

How the data were processed

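Double-amplified cRNA of both diets was read on each of 4 arrays. The authors deposited, per the file headers, spot intensity as mean and median signals beside the local background. Here the median background was removed from the mean signal by normexp (offset 50), and ratios were normalised by loess within arrays, with the 5791 control spots at weight 0. Ratios of dim probes are pulled towards 0 by the offset. Diet and dye effects were fitted with limma 3.58.1 in R 4.3.3 on 39429 probes (2 residual and 2.68 prior degrees of freedom), 2-sided, with Benjamini-Hochberg adjustment at 0.05. The printed SD is over the 4 turned ratios and includes the dye effect that the fit removes. Levels per sample are log2 intensities after loess and Aquantile and still hold dye effects of single probes.

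The authors' deposited log2 ratios per spot, with an unknown normalization, ran channel 1 over channel 2 (correlation with the scans between 0.755 and 0.884 over spots of intensity 200 or more). Their medians were 0.0041, -0.0038, -0.0035 and 0.0047 for L1/H1, L2/H3, L7/H7 and L8/H8. A further deposited table holds mean log2 ratios and p-values made with maanova, per the file headers, which do not say whether these p-values were adjusted.

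A spot counted as above background when its net signal was over that of 99% of the 604 spots of a dim control. Of the probes, 65.5% to 97.4% were above background in low-diet samples and 85.1% to 96.2% in high-diet samples, in each pair more in the Cy5 sample. Old symbols (2622) were updated through unique synonyms in RefSeq. Genes named with values were those called, the isoform and exchanger lists, those with an unadjusted p under 0.05 or a mean of 0.5 or more in size, and the few said to be chosen later. Brief means of other members are given so that all are accounted for. Atp6v0c, Slc4a7 and Car15 were listed but are not measured here. Members and lists were chosen with earlier results of these data known. Alternatives were the dye term, background correction, normalization, the authors' ratios, a filter on dim probes, the probe rule and each pair left out. With 1 pair left out, the ratio given for a gene is the diet effect of the fit and not a plain mean. The lone array of its dye orientation then weighs more than each other array. The number of arrays limits the precision.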

Additional observations from a re-analysis of the deposited data

Results flagged for a closer look

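In 6 of 60 members 1 pair stood far from the other 3 by Dixon's test at its 95% critical value. Chance alone marks about 1 in 20. The share of all named genes that this rule marks was not computed, so no excess among the members can be read from the count. Atp6v0d2 was at 1.07 in L8/H8, with the others between -0.14 and -0.07. Slc4a3 was at -1.42 in L8/H8, with the others between 0.02 and 0.09. In L1/H1, Car8 was at -0.24, Atp6ap1l at -0.15, Slc26a6 at -0.14 and Car3 at 0.04. The gaps of Atp6ap1l, Slc26a6 and Car3 are of dim probes and are small in size.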

How the results depend on the processing

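The number of members higher on the low diet was 2, and it was 0 without the dye term, 0 with plain background subtraction and 5 with the authors' processed log2 ratios, where Atp6v1a, Atp6v1f and Atp6v1g1 joined Atp6v0e and Atp6ap2. The number of lower members was 3, and it was 0 with plain background subtraction, 2 without the dye term, where Car4 was lost (adjusted p = 0.0676), and 2 with the mean of all probes, where Atp6v1g2 was lost (adjusted p = 0.0718). With median centring Atp6ap2 was lost (adjusted p = 0.0752) and Slc26a11 gained (adjusted p = 0.0439), so the count of higher members was still 2. When 1 pair was left out, the count of higher members ranged from 0 to 5 and that of lower members from 0 to 3. Without L1/H1 both counts were 0, without L2/H3 they were 5 and 2, without L7/H7 0 and 3, and without L8/H8 1 and 0. Among all named genes the share called was 0.318% without L1/H1, 2.83% without L2/H3, 1.53% without L7/H7 and 0.806% without L8/H8, against 7.82% with all pairs, while the count of called members was 7 without L2/H3, above the 5 with all pairs. Without L2/H3, L8/H8 is the lone array of its dye orientation and its own spread is not measured. Atp6v0d2, Atp6v1c2, Car12 and Slc4a9 as higher and Slc4a3 as lower passed in that fit only. The 5 members called with all pairs kept their direction under all 10 alternatives. The difference between intercalated-cell and housekeeping isoforms was -0.03 and lay between -0.11 and 0.07 under them. Slc26a4 ranged from -0.34 without L8/H8 to 1.03 without L2/H3 and passed under none. All fits are paired, since each ratio is taken within a littermate pair.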
